A study of Mus musculus with 18 samples.

Results

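The Dlk1-Dio3 locus is an imprinted domain of mouse chromosome 12, and 6 of its genes were followed here out of 55469 genes with usable values. They were taken by gene name and fall into 2 classes, the maternally expressed noncoding RNAs Meg3, Rian and Mirg and the paternally expressed coding genes Dlk1, Rtl1 and Dio3. The genes were chosen with their levels in all 18 libraries in view, so those levels are given as a description with no test, and tests are given for other genes. RNA-Seq was performed on bulk cultures in 9 conditions of 2 libraries each. OSKM-ESCs and 2iL-ESCs were the same embryonic stem cell (ESC) line from a cross of (C57BL/6 x 129S4/SvJae)F1 with (CBA/CaJ X C57BL/6J)F2, which carries doxycycline (DOX)-inducible Oct4, Sox2, Klf4 and c-Myc (OSKM) in a single polycistronic cassette in Col1a1, the transactivator M2rtTA in Rosa26 and an Oct4-GFP reporter. The 2iL-ESCs stayed in 2iL, N2B27 medium with the MEK inhibitor PD0325901, the GSK3 inhibitor CHIR99021 and leukemia inhibitory factor (LIF), without DOX. The OSKM-ESCs were moved from 2iL to N2B27 with DOX, and both were collected at days 18, 25 and 38. The iPSCs were reprogrammed with the same transgenes from mouse embryonic fibroblasts (MEF) of (C57BL/6 x 129S4/SvJae)F1 mice, as OSKM-iPSCs in N2B27 with DOX (clones 1 and 3, passages 7 and 6) and as 2iL-iPSCs in 2iL with DOX (clones 3 and 6, passages 2 and 3). For later culture of the 2iL-iPSCs the labels give N2B27 with DOX and the study's methods give 2iL without it. The MEF libraries, passage 4 in serum, were the reference. Passage and medium cannot be told apart in the iPSCs, the ESC line is a single line, and the clone numbers do not pair the clones.

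The domain works as a unit. On the maternal chromosome an unmethylated control region between Dlk1 and Meg3 allows a long run of noncoding RNAs to be transcribed, which hold clusters of miRNAs and small nucleolar RNAs (snoRNAs), and on the paternal chromosome that region is methylated and the coding genes are expressed. Meg3 (also called Gtl2) is the long noncoding RNA nearest the control region, Rian carries most of the snoRNAs and Mirg carries a large miRNA cluster. Dlk1 encodes a transmembrane protein related to NOTCH ligands, Rtl1 a protein derived from a retrotransposon Gag gene with a role in the placenta, and Dio3 the deiodinase that inactivates thyroid hormone. The locus is known in pluripotent cells because Meg3 is silenced in some mouse iPSC lines. These data carry no allele information, so the parental origin of the transcripts was not measured here.

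By the coordinates in the files (GRCm38), Dlk1 lies at chr12:109452823-109463336, Meg3 at chr12:109541001-109571726, Rtl1 at chr12:109589193-109600330, Rian at chr12:109603808-109661716, Mirg at chr12:109729764-109749460 and Dio3 at chr12:110279068-110281097. The domain from Dlk1 to Dio3 spans 828.3 kb. Rtl1, between Meg3 and Rian, is on the minus strand, and the other 5 genes are on the plus strand. The library kit does not mark strand, so reads of Rtl1 and of the noncoding RNA that runs opposite it cannot be told apart.

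**Figure D1:**
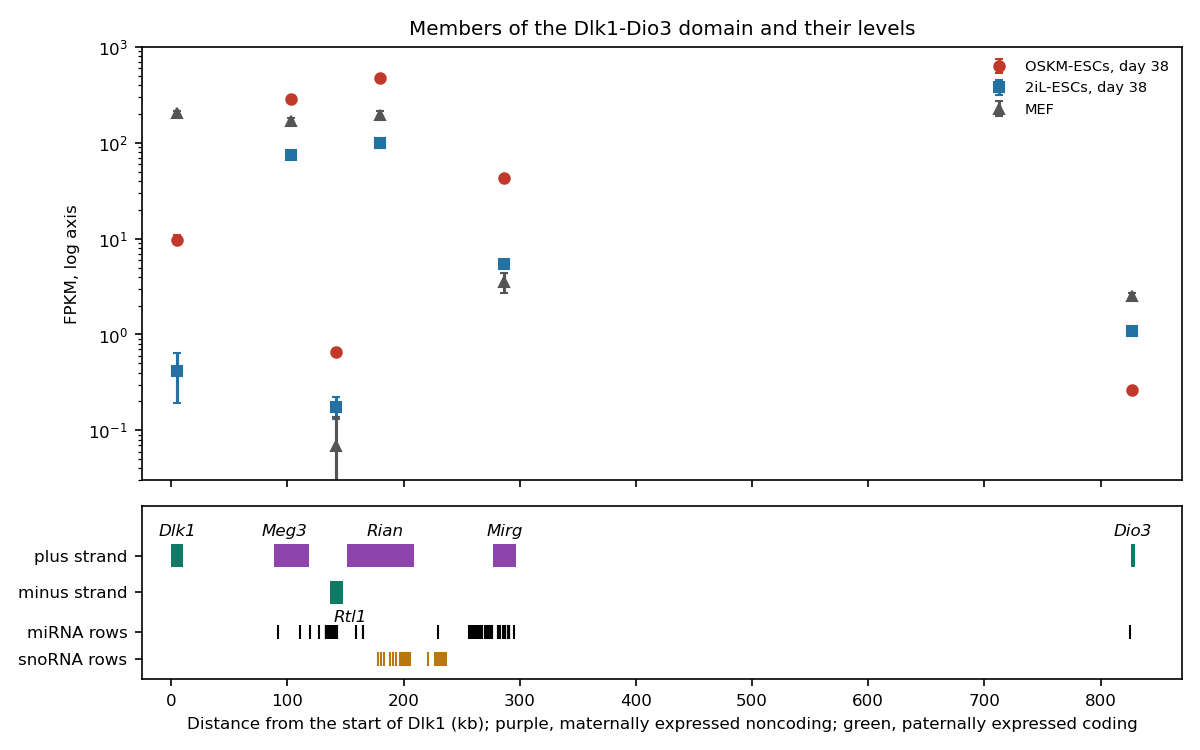
The upper panel plots mean FPKM (log axis) of each gene in OSKM-ESCs and 2iL-ESCs of day 38 and in MEF, with bars from the lower to the higher of 2 libraries, at its place in kb from the start of Dlk1; the bar of Rtl1 in MEF runs off the axis because 1 library is at 0. The lower panel places the genes by strand with the miRNA and snoRNA rows of the files. In the upper panel the noncoding genes, Dlk1 and Rtl1 sit higher in OSKM-ESCs than in 2iL-ESCs, while Dio3 sits lower.

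The sequences at the gene starts are shown because Meg3 and Dlk1 moved together by day and Dio3 did not, as described below. RefSeq windows (GRCm38.p6) of 250 bases before to 50 bases after the start were found for 5 of the 6 genes. All are on the plus strand, the Meg3 window is printed whole and those of Dlk1 and Dio3 up to the start. Capitals mark matches on either strand to TGCCGC, the letters that ZFP57 reads when methylated, TGACGTCA, the cAMP response element, and TATAAA, found a short way before many starts. Positions count from the RefSeq start, which for Meg3 is 5 bases from that of the files.
Meg3, chr12:109540746-109541045: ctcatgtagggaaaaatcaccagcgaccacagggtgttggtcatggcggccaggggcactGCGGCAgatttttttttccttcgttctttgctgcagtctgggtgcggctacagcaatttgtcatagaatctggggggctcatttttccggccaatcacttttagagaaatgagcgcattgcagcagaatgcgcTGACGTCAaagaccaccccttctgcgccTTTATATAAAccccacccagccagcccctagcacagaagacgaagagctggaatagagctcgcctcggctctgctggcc
Dlk1, chr12:109452573-109452822: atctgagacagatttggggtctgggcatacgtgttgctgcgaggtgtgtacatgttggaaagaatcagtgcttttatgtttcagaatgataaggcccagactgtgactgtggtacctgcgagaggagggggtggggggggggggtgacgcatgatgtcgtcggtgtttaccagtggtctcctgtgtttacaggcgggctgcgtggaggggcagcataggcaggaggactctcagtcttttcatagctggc
Dio3, chr12:110278980-110279229: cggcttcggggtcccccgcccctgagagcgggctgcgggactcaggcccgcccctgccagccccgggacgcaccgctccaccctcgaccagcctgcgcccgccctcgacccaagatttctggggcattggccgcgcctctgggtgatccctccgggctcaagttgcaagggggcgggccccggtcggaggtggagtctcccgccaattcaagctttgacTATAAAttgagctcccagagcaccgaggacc
The Meg3 window held 1 TGCCGC on the opposite strand 190 bases before the start, 1 TGACGTCA 57 bases before it and TATAAA 25 bases before it, with an overlapping match on the other strand 29 bases before it. Over all 32851 windows, 11.6% held TGCCGC, 1.79% held TGACGTCA and 13.6% held TATAAA on either strand. The Dio3 window held TATAAA 31 bases before its start, and the windows of Dlk1, Rian and Mirg held none of these motifs. The Mirg window lies 5217 bases from the start that the files give for Mirg. CG dinucleotides numbered 13 in the window of Meg3, 9 in that of Dlk1 and 25 in that of Dio3, and 37.9%, 45.8% and 18.4% of all windows held at least as many. These letters are a description of the windows and no binding or methylation was measured.

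RefSeq places 58 miRNA hairpins in the domain, 54 of them on the plus strand, with 114 mature miRNAs of 104 different seeds. Within Rtl1 lie 7 hairpins, 6 of them on the opposite strand. For these 6, 1 mature sequence each is shown, because 11 mature miRNAs from these 6 are perfectly complementary to the 6358-base Rtl1 transcript, and those of miR-3072 because its row had the highest level among the short rows. Capitals mark the seed, bases 2 to 8.
miR-431-5p: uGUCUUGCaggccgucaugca
miR-433-3p: aUCAUGAUgggcuccucggugu
miR-127-3p: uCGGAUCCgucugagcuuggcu
miR-434-3p: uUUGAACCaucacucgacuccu
miR-432: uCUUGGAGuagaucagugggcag
miR-136-5p: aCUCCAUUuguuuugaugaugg
miR-3072-5p: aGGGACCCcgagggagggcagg
miR-3072-3p: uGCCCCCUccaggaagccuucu
The site of miR-127-3p in the Rtl1 transcript reads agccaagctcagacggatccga. No 2 of these 8 miRNAs share a seed. Over the domain, 10 seeds are shared by mature miRNAs of at least 2 hairpins.

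Values are in FPKM, fragments mapped to a gene scaled to its length and to the size of the library. Comparisons between genes depend on this measure, since the deposited mean coverage per base orders some of them otherwise. In replicate 1 of the OSKM-ESCs of day 18, Rian had 219.5 FPKM with a coverage of 61.0. Meg3 had 85.3 FPKM there with a coverage of 75.6. Meg3 was measured at 85.3 and 85.8 FPKM in the OSKM-ESCs of day 18, at 191.6 and 186.7 at day 25 and at 282.2 and 286.2 at day 38. In 2iL-ESCs it was 56.3 and 50.0 at day 18, 80.1 and 78.9 at day 25 and 77.8 and 70.9 at day 38. Every OSKM-ESC library was above every 2iL-ESC library, and the OSKM-ESC libraries of each day were above those of the day before. The OSKM-iPSC clones 1 and 3 had 74.5 and 146.4 FPKM, the 2iL-iPSC clones 3 and 6 had 83.9 and 89.7, and MEF had 180.0 and 159.7. Clone 1 of the OSKM-iPSCs was thus below both 2iL-iPSC clones and clone 3 above them, and the lowest of the 16 pluripotent libraries had 50.0. In the order of condition means Meg3 was highest in OSKM-ESCs of day 38 (284.2), then of day 25 (189.1), then in MEF (169.9), and lowest in 2iL-ESCs of day 18 (53.2). The OSKM-iPSCs, the 2iL-iPSCs and the OSKM-ESCs of day 18, which follow each other in that order, overlapped with their neighbours.

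Rian, the host of most snoRNAs, was at 219.5 and 193.1 FPKM in OSKM-ESCs of day 18, 251.2 and 313.6 at day 25 and 470.3 and 488.4 at day 38. In 2iL-ESCs it was 113.4 and 113.9 at day 18, 90.5 and 93.5 at day 25 and 107.1 and 92.7 at day 38. As for Meg3, the media did not overlap and the 3 days of OSKM-ESCs were in ascending order without overlap. The OSKM-iPSC clones had 116.2 and 217.8 FPKM, the 2iL-iPSC clones 130.8 and 121.4, and MEF 212.7 and 174.9. The libraries of OSKM-ESCs of day 18, MEF and OSKM-iPSCs overlapped with the next condition in the order of means.

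Mirg, the host of the distal miRNA cluster, had lower levels. OSKM-ESCs had 22.0 and 15.4 FPKM at day 18, 31.2 and 25.2 at day 25 and 41.1 and 44.0 at day 38. The 2iL-ESCs had 9.26 and 5.52 at day 18, 9.37 and 8.06 at day 25 and 5.27 and 5.64 at day 38. Mirg again separated the media and again ascended by day in OSKM-ESCs. In the iPSCs the clones did not overlap either, with 12.3 and 23.3 FPKM in OSKM-iPSCs and 9.44 and 7.32 in 2iL-iPSCs. MEF had the lowest libraries of all at 4.42 and 2.73, so by FPKM Mirg was the noncoding gene that was higher in every pluripotent library than in MEF. By mean coverage per base this did not hold, with 7.36 and 5.23 in MEF and 6.05 and 6.15 in 2iL-ESCs of day 38. The 2iL conditions overlapped with each other in the order of means.

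Dlk1 was the coding gene with the widest range. OSKM-ESCs had 2.88 and 4.01 FPKM at day 18, 6.50 and 7.21 at day 25 and 10.8 and 8.74 at day 38, again in ascending order without overlap. The 2iL-ESCs had 0.606 and 0.954 at day 18, 0.467 and 0.539 at day 25 and 0.192 and 0.638 at day 38, so every 2iL-ESC library was below 1 FPKM and below every OSKM-ESC library. OSKM-iPSC clones had 1.61 and 2.68 FPKM and 2iL-iPSC clones 1.09 and 0.751, with no overlap. MEF stood far above with 213.0 and 193.5 FPKM. The highest pluripotent library thus had 5.32% of the MEF mean for Dlk1, whereas the same library had 166.2% of the MEF mean for Meg3.

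Dio3 ran the other way. It was at 0.393 and 0.720 FPKM in OSKM-ESCs of day 18, 0.195 and 0.462 at day 25 and 0.262 and 0.268 at day 38. In 2iL-ESCs it was 0.655 and 0.675 at day 18, 1.35 and 1.57 at day 25 and 1.08 and 1.11 at day 38. The media overlapped at day 18 and were apart at days 25 and 38, with Dio3 lower in OSKM-ESCs. OSKM-iPSC clones 1 and 3 had 0.205 and 1.54 FPKM, the 2iL-iPSC clones 1.82 and 2.04 and MEF 2.31 and 2.68. MEF and 2iL-iPSCs were the highest conditions, and the OSKM-iPSC clones lay far from each other.

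Rtl1 was near the lower limit throughout. Its highest library was OSKM-iPSC clone 3 at 0.920 FPKM, the other clone had 0.206, and 2iL-iPSC clones had 0.342 and 0.374. OSKM-ESCs had 0.290 and 0.185 FPKM at day 18, 0.807 and 0.658 at day 25 and 0.714 and 0.602 at day 38. The 2iL-ESCs had 0.365 and 0.209 at day 18, 0 and 0.172 at day 25 and 0.131 and 0.223 at day 38, and MEF had 0 and 0.137. Rtl1 was higher in OSKM-ESCs than in 2iL-ESCs without overlap at days 25 and 38 but not at day 18, and every condition overlapped with its neighbour in the order of means. Depth in reads is unknown. The mean coverage per base was 39.1 to 233.2 for Meg3, 22.2 to 124.8 for Rian, 5.23 to 40.6 for Mirg, 0.657 to 355.7 for Dlk1, 0 to 5.59 for Rtl1 and 0.925 to 12.7 for Dio3, so Rtl1 and Dio3, and Dlk1 in 2iL, rest on few reads.

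**Figure D2:**
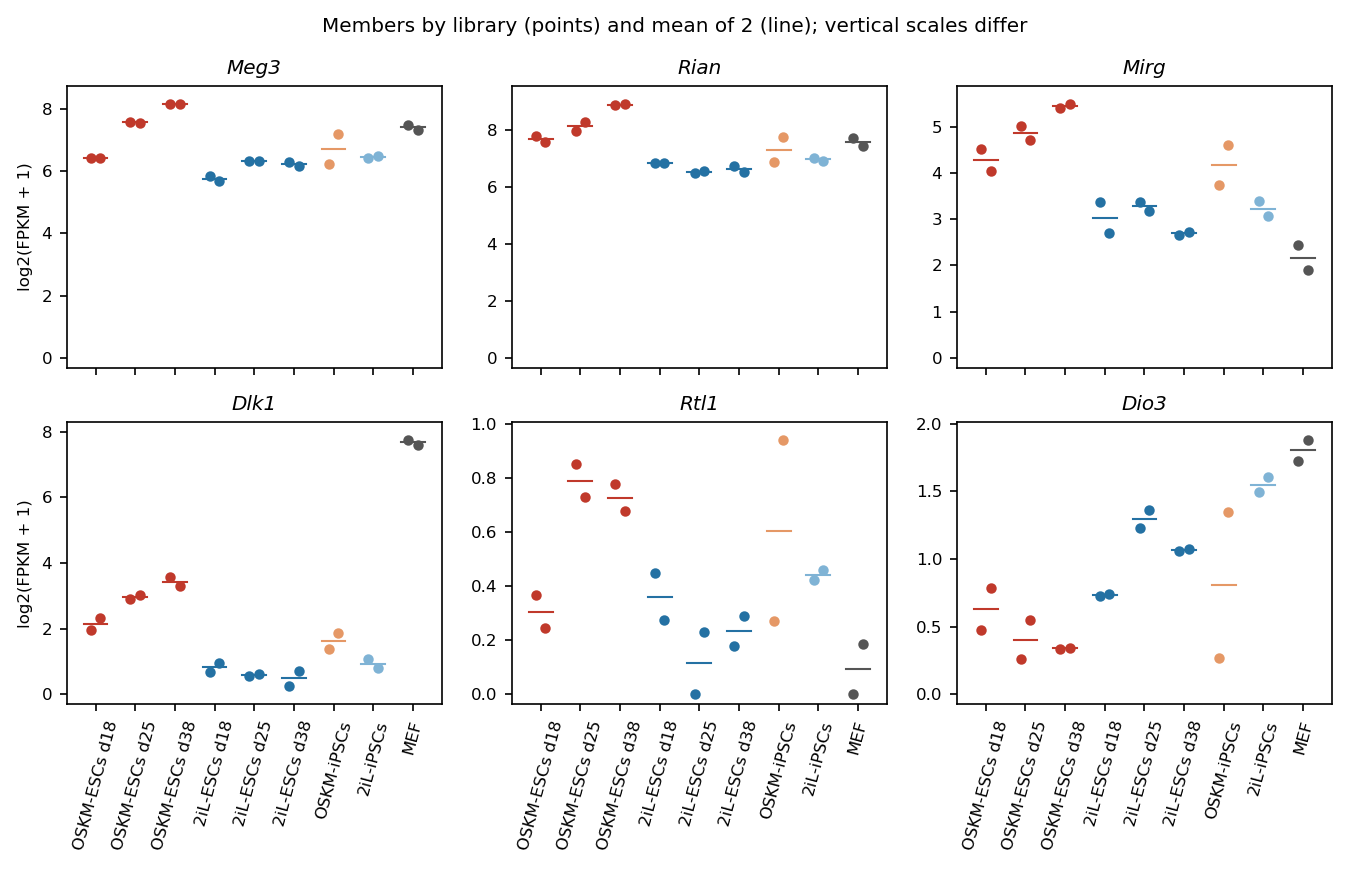
Each panel plots log2(FPKM + 1) of a gene, with 1 point per library, a line at the mean of the 2 libraries of a condition and a vertical scale of its own. Meg3, Rian, Mirg and Dlk1 ascend at each later day in OSKM-ESCs (red); in 2iL-ESCs (blue) none does so, and Meg3 is higher at days 25 and 38 than at day 18. Dlk1 is highest in MEF (grey) and Dio3 is higher in 2iL than in OSKM conditions from day 25 on.

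The medium comparison in ESCs addresses how cells kept by transgenes differ from cells kept by inhibitors and LIF. Differences are of log2(FPKM + 1), which understates the change of low genes. Over all days, with day as a covariate, Dlk1 differed most (2.21 ± 0.23, SE, n = 6 against 6), followed by Mirg (1.86 ± 0.22), Rian (1.57 ± 0.18) and Meg3 (1.28 ± 0.16). Rtl1 differed by 0.37 ± 0.12 and Dio3 by -0.57 ± 0.14. Rtl1 was the only one of the 6 that did not pass the filter of an FPKM over 1 in at least 1 ESC library, so 5 of 6 passed, and its value is from least squares. Meg3, Rian, Mirg and Dlk1, 4 of the 6, were higher in every OSKM-ESC library than in any 2iL-ESC library. That was so for 14.6% of the 14016 genes tested, and 12% were lower in this sense. Since the genes were chosen on this contrast, the count is a description. The low genes depend on the pseudocount, and with 0.1 in place of 1 the differences were 3.32 for Dlk1, 1.20 for Rtl1 and -1.30 for Dio3.

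The size of the difference was larger at each later day for these 4 genes. For Meg3 it was 0.68 ± 0.11 at day 18, 1.24 ± 0.08 at day 25 and 1.92 ± 0.05 at day 38 (SE, n = 2 against 2). Dlk1 went from 1.32 ± 0.19 through 2.38 ± 0.13 to 2.94 ± 0.19. For Rian the 3 values were 0.85, 1.60 and 2.25, and for Mirg 1.25, 1.58 and 2.75. Dio3 had -0.11 at day 18, -0.89 at day 25 and -0.73 at day 38. Among all genes tested, 41.9% at day 18, 34.4% at day 25 and 46.2% at day 38 were higher without overlap, and 31.2%, 41.1% and 34.6% were lower, so with 2 libraries against 2 such a separation is common.

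Within OSKM-ESCs the mean of day 38 was 3.32 times that of day 18 for Meg3, 2.83 times for Dlk1, 2.32 times for Rian and 2.28 times for Mirg. An ascending order of the 3 days without overlap was seen in these 4 of the 6 genes, and in 8.33% of 13073 genes, with 4.34% in descending order. In 2iL-ESCs none of the 6 had such an order, which 4.01% of 12726 genes had upward and 2.49% downward. There the ratio of day 38 to day 18 was 1.40 for Meg3, 0.879 for Rian, 0.738 for Mirg, 0.531 for Dlk1 and 1.64 for Dio3. The days are 3 time points of 2 libraries each, and whether a day also marks a preparation or sequencing run is not given in the sources used here.

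In the iPSCs the differences were smaller than or near to the spread of the clones for most of the genes. Mirg differed by 0.95 ± 0.32 and Dlk1 by 0.70 ± 0.31 (SE, n = 2 against 2), and these 2 were higher in both OSKM-iPSC clones than in either 2iL-iPSC clone, as were 37.2% of 13653 genes. Dio3 differed by -0.74 ± 0.42 and was lower without overlap, as were 25.4% of genes. Meg3 differed by 0.27 ± 0.32, Rian by 0.33 ± 0.30 and Rtl1 by 0.16 ± 0.34, each with overlap. Clone 3 of the OSKM-iPSCs decided these 3 signs, because without it Meg3 differed by -0.22, Rian by -0.12 and Rtl1 by -0.17. Without it Mirg differed by 0.52, Dlk1 by 0.45 and Dio3 by -1.28, and without clone 1 Meg3 differed by 0.75, Rian by 0.78, Rtl1 by 0.50 and Dio3 by -0.21. A pseudocount of 0.1 gave 1.12 for Dlk1 and -1.52 for Dio3. Clone 3 had a higher FPKM than clone 1 in all 6 genes, Dio3 included.

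**Figure D3:**
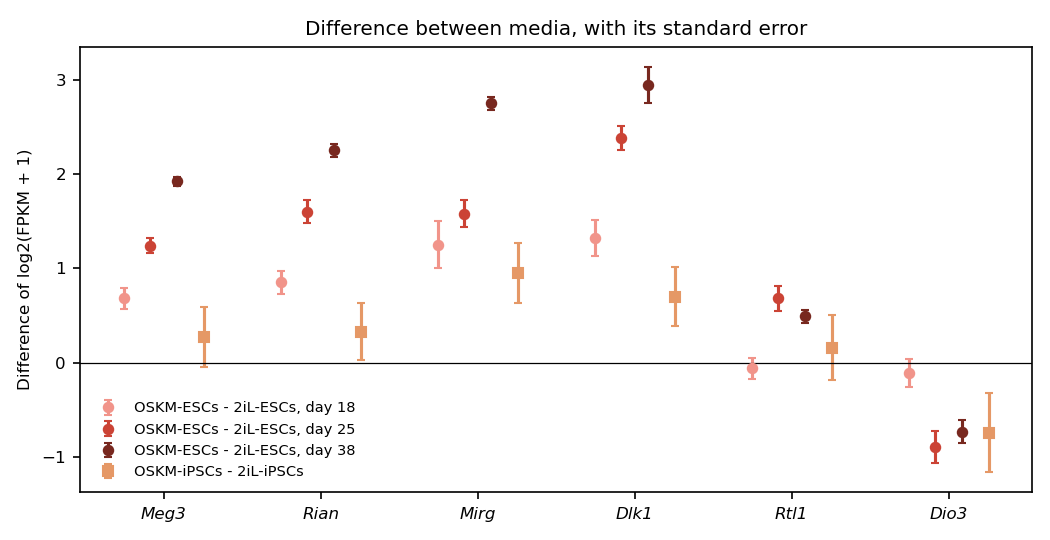
The plot gives the difference of log2(FPKM + 1) between OSKM and 2iL conditions for each gene, with its standard error, in ESCs at each day (circles) and in iPSCs (squares), 2 libraries against 2. The differences of Meg3, Rian, Mirg and Dlk1 lie higher at each later day, and those of the iPSCs lie below the ESC values of all 3 days for these 4 genes.

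Against MEF, the cells that the iPSCs came from, the genes of the locus split. Dlk1 was lower by far, with differences of -6.04 ± 0.20 (SE, n = 2 against 2) for OSKM-iPSCs and -6.74 ± 0.13 for 2iL-iPSCs. Mirg was higher, by 2.00 ± 0.37 and 1.05 ± 0.23. Meg3 was lower, by -0.69 ± 0.35 and -0.96 ± 0.10, and Rian differed by -0.28 ± 0.34 and -0.61 ± 0.13. Dio3 was lower too, with FPKM + 1 at 0.501 times the MEF value for OSKM-iPSCs and 0.839 times for 2iL-iPSCs. Rtl1 was higher than in MEF without overlap in both, by 0.51 ± 0.35 and 0.35 ± 0.09, at levels below 1 FPKM. Both comparisons use the same 2 MEF libraries. Of 14210 genes tested, 47.6% were higher and 36.9% lower without overlap in OSKM-iPSCs, and of 14224 genes 46.9% and 42.6% in 2iL-iPSCs.

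The classes were then compared by their sums. The noncoding sum, Meg3 with Rian and Mirg, was 538.8 ± 224.7 FPKM in OSKM-ESCs and 178.1 ± 7.89 in 2iL-ESCs (SD, n = 6). The coding sum, Dlk1 with Rtl1 and Dio3, was 7.62 ± 3.02 and 1.82 ± 0.299 FPKM. In 2iL-ESCs the noncoding sum stayed between 169.2 and 190.3 FPKM over all 6 libraries, while in OSKM-ESCs it went from 294.3 to 818.6. On the log2 scale the noncoding sum differed between the media by 1.48 ± 0.20 (SE) and the coding sum by 1.54 ± 0.19, and their ratio by -0.05 ± 0.12, which is smaller than its error. With a pseudocount of 0.1 the coding sum differed by 1.92 and the ratio by -0.43, and with TPM the ratio differed by -0.26. By day the noncoding sum differed by 0.83, 1.46 and 2.16 and the coding sum by 0.93, 1.55 and 2.13. In iPSCs the sums differed by 0.34 ± 0.47 and 0.03 ± 0.51, and without OSKM-iPSC clone 3 by -0.12 and -0.48. Their ratio differed by 0.31 ± 0.05 (SE, n = 2 against 2) in iPSCs and lay between 0.26 and 0.53 in 9 alternatives. With nothing added, the ratio was 100.4 and 75.4 in OSKM-iPSC clones 1 and 3 and 69.0 and 69.1 in 2iL-iPSC clones 3 and 6. Adding 1 to the low coding sums narrows the gap between the OSKM-iPSC clones, so the error of 0.05 understates their spread.

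By FPKM, the noncoding sum was 59.8 to 136.0 times the coding sum in the 16 pluripotent libraries and 1.84 and 1.72 times it in MEF. By mean coverage per base the order was reversed in MEF. Dlk1 alone had 355.7 and 278.6 there, above Meg3, Rian and Mirg together, of which Meg3 was highest at 142.1 and 113.5. In the pluripotent libraries Meg3 and Rian stayed above each coding gene by coverage, but above Dlk1 and Dio3 by a smaller factor than by FPKM. Mirg did not always do so. In 2iL-iPSC clones 3 and 6 its coverage was 8.44 and 9.85, below Dio3 at 9.26 and 10.7. Coverage was below FPKM for Meg3 and Rian and above it for Dlk1 and Dio3. What made up the coding sum, again by FPKM, differed more. Dlk1 gave 80.8% to 91.7% of it in OSKM-ESCs, 13.7% to 51.9% in 2iL-ESCs, 79.7% and 52.1% in OSKM-iPSC clones 1 and 3, 33.4% and 23.7% in 2iL-iPSC clones 3 and 6 and 98.9% and 98.6% in MEF. The coding sum in ESCs thus held Dlk1 and Dio3 with differences of opposite sign.

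**Figure D4:**
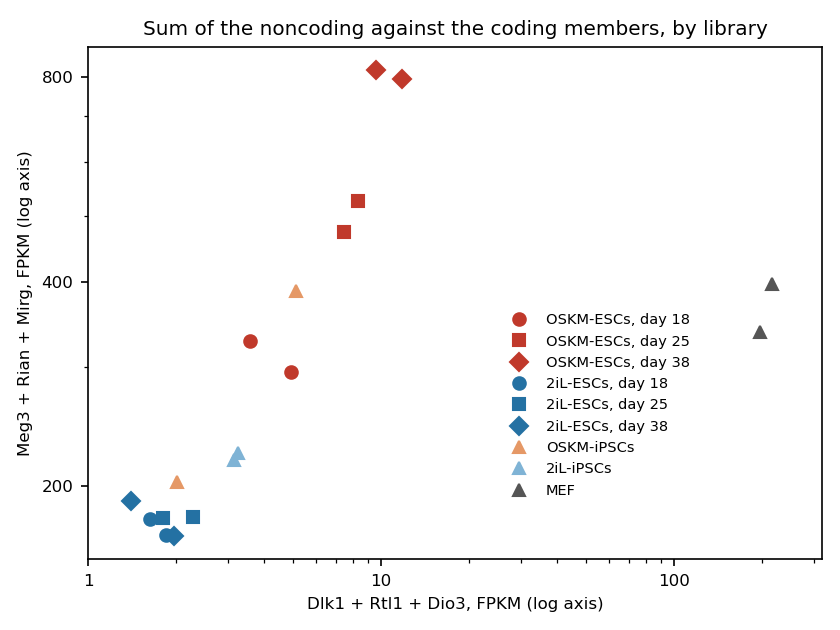
Each point is a library, with the FPKM sum of the coding genes on the x axis and of the noncoding genes on the y axis, both log axes. The OSKM-ESC libraries run upward and to the right with day, from 294.3 to 818.6 on the y axis, the 2iL-ESC libraries stay in 1 corner and MEF stand apart on the right at 196.3 and 215.4 on the x axis.

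The noncoding RNAs did not keep a fixed proportion. Rian was 2.57 and 2.25 times Meg3 in OSKM-ESCs of day 18 and 2.01 and 2.28 times in 2iL-ESCs of day 18. At days 25 and 38 the ratio lay between 1.31 and 1.71 in OSKM-ESCs and between 1.13 and 1.38 in 2iL-ESCs, so day 18 was higher than both later days in either medium. MEF had 1.18 and 1.10. Mirg was 0.135 to 0.258 times Meg3 in OSKM-ESCs, 0.0677 to 0.164 times in 2iL-ESCs, 0.165 and 0.159 times in OSKM-iPSCs, 0.113 and 0.0816 times in 2iL-iPSCs and 0.0246 and 0.0171 times in MEF. MEF thus had the lowest ratio, below every pluripotent library. These ratios are taken within a library and do not depend on how libraries are scaled to each other. They do depend on how each gene is measured, because by coverage per base Rian was below Meg3 in every library. In OSKM-ESCs of day 18 that coverage was 61.0 and 53.1 for Rian and 75.6 and 83.4 for Meg3.

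The files list 110 other rows between Dlk1 and Dio3, of which 67 are miRNAs and 23 are snoRNAs. An FPKM over 1 in any library was reached by 8 rows, 6 of them miRNAs and 2 snoRNAs, and 43 rows were listed at 0 in all 18 libraries. The libraries were made from poly-A RNA, and mature miRNAs are too short for them, so these rows hold fragments of longer RNAs. Mir3072, which overlaps an exon of Mirg (chr12:109747878-109747960), had the highest values, with 15.2 and 21.6 FPKM in OSKM-ESCs of day 18, 51.5 and 58.4 at day 25 and 57.8 and 60.8 at day 38. In 2iL-ESCs it lay between 9.93 and 13.6 FPKM, in OSKM-iPSCs it was 15.5 and 30.5, in 2iL-iPSCs 10.1 and 25.5 and in MEF 0 and 13.7. It separated the media in ESCs as its host did. The snoRNAs Gm24564 and AF357425 inside Rian reached 4.38 and 3.86 FPKM, both in OSKM-ESCs of day 38, and the miRNAs Mir1188 inside Rian and Mir541 and Mir369 inside Mirg reached 1.62, 1.36 and 1.22 FPKM. FPKM of such short rows is unstable. The 6 hairpins opposite Rtl1, whose sequences are given above, were listed at 0 in every library.

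The genes outside the domain give a measure of the surrounding chromosome. Of 24 genes tested within 1 Mb on either side, 9 rose and 3 fell in OSKM-ESCs over all days (limma, Benjamini-Hochberg over all genes), with a median log2 difference of 0.14, where 29.5% of all genes tested rose and 24.4% fell with a median of 0.03. On the rest of chromosome 12, 171 of 495 genes rose and 106 fell, with a median of 0.13. The differences of the 24 flanking genes ranged from -1.03 to 2.14. The top value was that of 1 gene, Eml1, which lies 913.2 kb from the domain. All other flanking genes were at most 1.01. Of the 6 genes of the locus, Meg3 (1.28), Rian (1.57), Mirg (1.86), Rtl1 (0.37) and Dio3 (-0.57) lay within the flanking range. Dlk1 (2.21) lay just above it. The 6 genes were chosen on this contrast, so their place is a description. Adding 1 to FPKM also shrinks the differences of low flanking genes. Slc25a47 averaged 2.03 FPKM in OSKM-ESCs and 0.502 in 2iL-ESCs, where Meg3 averaged 186.3 and 69.0. On the Dlk1 side the nearest genes tested were Begain (0.61 ± 0.14, SE, adjusted p = 0.0035), Wdr25 (0.21 ± 0.11, adjusted p = 0.12) and Wars, a tRNA synthetase gene (0.66 ± 0.10, adjusted p = 0.00013). On the Dio3 side they were Ppp2r5c, a phosphatase subunit gene (-0.08 ± 0.14, adjusted p = 0.67), Gm19605 (0.84 ± 0.18, adjusted p = 0.0018) and Dync1h1, the dynein heavy chain gene (0.00 ± 0.06, adjusted p = 0.96). The largest changes in the flanks were of Eml1, a microtubule-binding protein gene (2.14 ± 0.26), Mok, a kinase gene (-1.03 ± 0.18), and Slc25a47, a mitochondrial carrier gene (1.01 ± 0.13). In iPSCs 0 of 24 flanking genes rose and 1 fell, Mok (-1.32 ± 0.21, adjusted p = 0.028), where 7.96% of all genes were called, 5% rising and 2.96% falling. An unadjusted p under 0.05 was reached by 7 of the 24. By day, 2 of 21 rose and 4 fell at day 18, 8 of 23 rose and 4 fell at day 25 and 13 of 23 rose and 4 fell at day 38. Over all genes 43.4%, 46.0% and 59.8% were called at these days, with 25.7%, 20.7% and 34.6% rising and 17.7%, 25.3% and 25.2% falling.

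Genes that set or keep the imprint moved in both directions. Of 18 regulators, all tested, 5 rose and 10 fell in OSKM-ESCs over all days, with a median of -0.41. Over all genes 53.8% were called, 29.5% rising and 24.4% falling, so the share of regulators that rose was near that of all genes. Aff3, whose protein binds the control region of the locus, rose by 2.08 ± 0.18 (adjusted p = 1.9e-06), from 0.685 ± 0.249 FPKM in 2iL-ESCs to 6.50 ± 2.94 in OSKM-ESCs (SD, n = 6). The de novo DNA methyltransferases Dnmt3b (1.37 ± 0.31, adjusted p = 0.0029) and Dnmt3a (1.30 ± 0.22, adjusted p = 0.0004) rose as well. Dppa3, which guards imprints in the zygote, fell by 1.81 on the log2 scale (SE 0.11, adjusted p = 1.1e-07), and the methylcytosine dioxygenase Tet2 fell by 1.18 (SE 0.11, adjusted p = 3.6e-06). Dnmt3b was at 222.4 ± 108.2 FPKM in OSKM-ESCs and 82.4 ± 27.2 in 2iL-ESCs (SD, n = 6), and its difference was 0.45 at day 18, 2.85 at day 25 and 0.80 at day 38. By day 3 of 18 regulators rose and 11 fell, then 6 and 8, then 5 and 10, where of all genes 25.7%, 20.7% and 34.6% rose and 17.7%, 25.3% and 25.2% fell. Aff3 rose at each day, by 1.89, 2.83 and 1.52. Dnmt3l was not called over all days (-1.24 ± 0.52, adjusted p = 0.064). It was called at each day, with differences of -2.25, 1.27 and -2.74.

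Among the 18 regulators in iPSCs, 1 rose and 4 fell, beside 5% and 2.96% of all genes. All list counts in iPSCs became 0 without either 2iL-iPSC clone, which leaves that group with 1 library. Aff3 rose (1.80 ± 0.28, adjusted p = 0.028), while Zfp57, Tet2, the Polycomb subunit Eed and Trim28 fell. Zfp57, the zinc finger protein that keeps methylation at imprinted control regions with TRIM28, was at 105.0 ± 18.0 FPKM in OSKM-iPSCs and 265.6 ± 2.90 in 2iL-iPSCs (SD, n = 2), a difference of -1.34 ± 0.17 (adjusted p = 0.018). In ESCs it was at 101.6 ± 22.5 and 207.0 ± 13.9 FPKM (SD, n = 6), a difference of -1.04 ± 0.12 (adjusted p = 1.2e-05). Zfp57, Tet2, Eed, Trim28 and Aff3 were called in the same direction in both cell types. Against MEF, 17 of 18 regulators rose and 0 fell in OSKM-iPSCs, and 17 rose and 1, Aff3, fell in 2iL-iPSCs (-1.80 ± 0.13, adjusted p = 0.00018). In these comparisons 60.3% of all genes were called in OSKM-iPSCs, 34.0% rising and 26.4% falling, and 78.0% in 2iL-iPSCs, 40.6% rising and 37.4% falling. Aff3 had 3.64 ± 0.0997 FPKM in MEF and 3.68 ± 0.902 in OSKM-iPSCs (SD, n = 2). Dppa3 was listed at 0 in both MEF libraries.

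Other imprinted genes were tested as a background for the locus. Of 24, 21 passed the filter in ESCs, and 15 rose and 1 fell in OSKM-ESCs over all days, with a median of 0.80, where 29.5% of all genes rose and 24.4% fell. Igf2, the fetal growth factor, differed by 4.24 ± 0.20 (adjusted p = 1.1e-08), Nnat by 3.40 ± 0.07 (adjusted p = 5.8e-11), the cell cycle inhibitor gene Cdkn1c by 3.01 ± 0.16 (adjusted p = 2.9e-08), the growth inhibitor gene Grb10 by 2.75 ± 0.11 (adjusted p = 3e-09) and the noncoding H19 by 2.26 ± 0.12 (adjusted p = 3.2e-08). The 1 that fell was Plagl1 (-1.25 ± 0.27, adjusted p = 0.002). Both maternally expressed genes (H19, Cdkn1c, Grb10) and paternally expressed genes (Igf2, Nnat) were thus among those with the largest differences. In iPSCs 6 of 21 rose and 0 fell, with a median of 1.06, where 5% of all genes rose and 2.96% fell. Igf2 differed by 4.07 ± 0.57 (adjusted p = 0.022) and H19 by 4.32 ± 0.62 (adjusted p = 0.023) there. In MEF, Igf2 had 1141 ± 25.9 and H19 1959 ± 372.0 FPKM (SD, n = 2). By day in ESCs, 13 of 19 rose and 2 fell at day 18, 13 of 21 rose and 2 fell at day 25 and 16 of 21 rose and 1 fell at day 38. Of all genes 25.7%, 20.7% and 34.6% rose at these days and 17.7%, 25.3% and 25.2% fell. Against MEF 9 of 22 rose and 9 fell in OSKM-iPSCs, and 8 of 21 rose and 12 fell in 2iL-iPSCs, where of all genes 34.0% rose and 26.4% fell and 40.6% rose and 37.4% fell. Igf2 was lower than in MEF in both (-4.91 ± 0.52, adjusted p = 0.0032, and -8.98 ± 0.34, adjusted p = 3.5e-05), as Dlk1 was.

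Genes that act with the coding members were followed in 3 groups. Of 14 NOTCH pathway genes for Dlk1, 11 were tested in ESCs and 6 rose, where 29.5% of all genes rose, among them the ligand genes Dll1 (1.97 ± 0.32, adjusted p = 0.00028) and Dll3 (1.79 ± 0.33, adjusted p = 0.00061). Dll1 differed by 1.23 at day 25 and 3.47 at day 38. At day 25, 5 of 9 NOTCH genes tested rose and 3 fell, namely Notch1, Notch4 and Hes1. Of all genes 20.7% rose and 25.3% fell at that day. At day 38 all 11 NOTCH genes tested rose, where 34.6% of all genes rose. Among the thyroid hormone genes for Dio3, the transporter gene Slc16a10 rose (0.95 ± 0.10, adjusted p = 6.4e-06), while the receptor gene Thra differed by 0.07 ± 0.13 (adjusted p = 0.65). Of 9 retrotransposon Gag-like genes related to Rtl1, 6 were tested and 6 rose, among them Rtl8c (2.03 ± 0.27, adjusted p = 6.3e-05) and Peg10, which is imprinted itself (1.87 ± 0.09, adjusted p = 1.3e-08). Over the 3 groups 14 of 20 rose and 0 fell, with a median of 1.09, beside 29.5% and 24.4% of all genes. Against MEF 8 of 21 rose and 11 fell in OSKM-iPSCs, beside 34.0% and 26.4% of all genes, and 4 of 19 rose and 13 fell in 2iL-iPSCs, beside 40.6% and 37.4%. In iPSCs 4 of 18 rose and 0 fell between the media, beside 5% and 2.96% of all genes, namely Notch2, Notch3, Ldoc1 and Peg10. The near copies Rtl8a, Rtl8b and Rtl8c share sequence, so their reads may be split between them.

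Scaling bears on how these directions are read. In iPSCs 683 genes rose and 404 fell, but with quantile normalization 434 rose and 444 fell. The median log2 difference of all genes there was 0.09 and became -0.01. The signs of the medians of the regulators, the other imprinted genes, the partners with their 3 groups, the flanking genes and the fibroblast markers were kept in ESCs and iPSCs under median-ratio scaling, quantile normalization and TPM.

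Genes were ranked by how alike their pattern was to Meg3 and to Dlk1, by Pearson's r of log2(FPKM + 1) over the 16 pluripotent libraries and 14620 genes. Nearest to Meg3 were Lrp3 (r = 0.967), Dll1 (0.950), Galnt16 (0.945), Klhl29 (0.943) and Phf21b (0.940). Rian stood at rank 23 (0.906), Mirg at 39 (0.891) and Dlk1 at 66 (0.876), and Dio3 had -0.428. Nearest to Dlk1 were Ldb2 (0.973), Alox15 (0.969), Rxrg (0.965), Rian (0.961) and Tmem229a (0.960), and Dio3 had -0.675. Galnt16 and Klhl29 are also on chromosome 12, outside the flanks. The 16 libraries are of few conditions and differ above all by medium and day, so many genes share such a pattern. With the MEF libraries added, r of Mirg to Dlk1 changed from 0.942 to -0.082.

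MEF also serve as feeder cells in ESC culture, per the study's methods, and Dlk1 was high in them, so fibroblast markers were set beside it. In bulk libraries, fewer cells of a type and less RNA per cell cannot be told apart. All 12 markers had an FPKM over 1 in MEF and their sum was 1122 and 1274 FPKM. It was 2.17% and 2.41% of the MEF mean in OSKM-ESCs of day 18, 1.48% in both libraries of day 25 and 1.42% and 1.33% at day 38, while Dlk1 was 1.42% and 1.97%, then 3.20% and 3.54%, then 5.32% and 4.30% of its MEF mean. The marker sum was therefore lower at later days and Dlk1 was higher. In 2iL-ESCs the marker sum was 0.283% to 0.466% and Dlk1 was 0.0942% to 0.469% of the MEF mean. OSKM-iPSC clone 1 had 6.31% of the marker sum with 0.793% of Dlk1, and clone 3 had 0.408% of the marker sum with 1.32% of Dlk1. The 2iL-iPSC clones had 0.254% and 0.147% with 0.535% and 0.369%. Over all days 7 of 8 markers tested rose in OSKM-ESCs and 0 fell, where 29.5% of all genes rose and 24.4% fell. Igf2 and H19 above rose as well. In iPSCs 0 of 9 markers tested were called between the media, where 7.96% of all genes were. The part of fibroblast RNA in these results was not tested.

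Markers of other cell states were set beside the members by day. The sum of the 6 pluripotency markers was 982.8 and 990.0 FPKM in OSKM-ESCs of day 38, 1378 to 1628 at days 18 and 25, 2391 to 2640 in 2iL-ESCs and at most 0.466 in MEF. The sum of the 3 trophoblast markers was 24.5 and 26.3 FPKM at day 38, from Cdx2 with Gata3 and Elf5 listed at 0, and 0.889 to 1.76 at days 18 and 25. The 3 endoderm markers summed to 2.06 and 3.32 FPKM at day 38 and to 0.342 to 1.58 in the other ESC libraries. In MEF their sum was higher, at 6.05 and 6.77 FPKM with Sox17 listed at 0, so it is not particular to endoderm here. The 4 neural markers summed to 38.9 to 50.2 FPKM in OSKM-ESCs, 47.8 to 69.5 in 2iL-ESCs and 31.0 and 33.0 in MEF. Sox1 was listed at 0 in every condition. Day 38 was also the day of the highest Meg3, Rian, Mirg and Dlk1 in OSKM-ESCs, except that Dlk1 was higher in MEF. Whether the libraries of day 38 held cells of other states, and any part of such cells in these levels, was not tested.

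**Figure D5:**
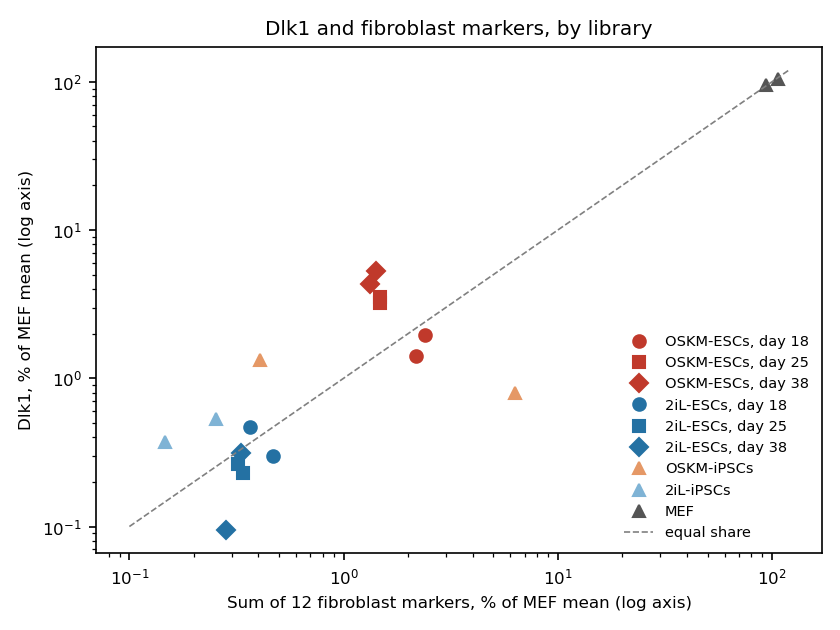
Each point is a library, with the sum of 12 fibroblast markers on the x axis and Dlk1 on the y axis, both in percent of the MEF mean on log axes; the dashed line marks equal shares. OSKM-ESCs of days 25 and 38 lie above the line, at 3.20% to 5.32% on the y axis against 1.33% to 1.48% on the x axis, and OSKM-iPSC clone 1 lies below it.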

How the data were processed

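RNA-Seq of 18 libraries in 9 conditions was used. The authors aligned reads to GRCm38 with STAR 2.7.1a, kept uniquely mapped reads and ran StringTie 2.0 (Cuffdiff 2.2.1 is listed too, per the labels). The deposited FPKM values are normalized per library by the authors, and the deposited coverage is a signal, the mean depth per base. The deposited TPM was not used and TPM was recomputed from FPKM. Of 55471 genes, 2 with a failed value were left out and 11 repeated identifiers were summed. Between 11303 and 12095 genes per library exceeded FPKM 1. Depth in reads is unknown. No values were identical between replicates over the genes above FPKM 1. The labels do not state whether replicates are separate cultures beyond their numbers, so p-values measure the spread between these samples. In the ESC fit across days, this spread includes changes of the medium difference from day to day. The residual SD of Meg3 was 0.32 in that fit and 0.08, 0.02 and 0.07 in the fits of days 18, 25 and 38.

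Tests used limma 3.58.1 in R 4.3.3 (trended eBayes) on log2(FPKM + 1). A gene entered where any library of that comparison exceeded FPKM 1, each fit held its own groups alone, and the ESC fit across days had a day term. Calls were made at a Benjamini-Hochberg adjusted p under 0.05, adjusting over every gene in the fit. The 6 genes of the locus and their sums have differences and standard errors only. The procedure was tested on simulated data. Coordinates of 99.5% of 55142 genes equal those of GENCODE M21. Rules named the 6 genes, up to 5 called genes of each list by size and the 3 nearest genes tested on each side. They also named up to 6 rows inside the domain and the 5 nearest patterns. Members of counts of 5 or fewer in iPSCs, Plagl1, Slc16a10, Thra, Notch1, Notch4, Hes1, Zfp57 and Dnmt3l were named after their values were seen. The result of 1 gene that the rules name is not reported here. Members and lists were chosen with earlier results of these data known. Sequences are from RefSeq and GENCODE M21. Python 3.11.15, numpy 2.4.6, pandas 2.3.3 and matplotlib 3.10.9 were used.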

Additional observations from a re-analysis of the deposited data

How the results depend on the processing

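In ESCs the differences of Meg3, Rian, Mirg, Dlk1, Rtl1 and Dio3 kept their sign in all 18 alternatives. They ranged from 1.18 to 1.38 for Meg3, 2.07 to 3.32 for Dlk1 and -1.30 to -0.50 for Dio3. The coding sum was 1.92 with a pseudocount of 0.1, which weighs low values more. The numbers were not taken to pair the ESC libraries, since deviations of same-numbered libraries had r = 0.14, 0.09 and 0.01 at days 18, 25 and 38. A replicate block gave 6673 genes in place of 7546 and 15 regulators, 15 other imprinted genes, 13 partners and 13 flanking genes, and left the noncoding sum at 1.48 and the coding sum at 1.54. No iPSC pairing was possible because clone numbers share no origin. Leaving out each ESC library in turn gave 6909 to 7541 genes, 15 to 17 regulators, 15 to 16 other imprinted genes, 13 to 16 partners, 12 to 14 flanking genes, 1.38 to 1.59 for the noncoding sum and 1.42 to 1.66 for the coding sum.

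In iPSCs the counts depended on the processing, from 1087 genes, 5 regulators, 6 other imprinted genes, 4 partners and 1 flanking gene. Without the filter limma called 0 in each, against 5014, 8, 11, 10 and 7 at an unadjusted p under 0.05, while in ESCs the same setting gave 8627 genes; the cause was not tested. A single fit of all 9 conditions, which takes the spread from all 18 libraries, gave 6143, 10, 15, 15 and 6. Flanking genes numbered 3 with a pseudocount of 0.1, 3 with FPKM over 1 in 2 libraries and 2 with TPM, and partners 7 with that filter and 7 without trend; the cause was not tested. Leaving out a clone assumes that the lone clone of its group varies like the other group. It gave 0 to 2076 genes, 0 to 5 regulators, 0 to 8 other imprinted genes, 0 to 7 partners and 0 to 3 flanking genes. Each 0 came without 2iL-iPSC clone 3 (1917, 6, 7, 7 and 2 at an unadjusted p under 0.05) and without clone 6 (1880, 8, 7, 7 and 2), and 2076 came without OSKM-iPSC clone 3. The noncoding sum went from -0.12 without OSKM-iPSC clone 3 to 0.81 without clone 1, and the coding sum from -0.48 to 0.55.

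Of the 5 genes nearest to Meg3, 3 stayed with a pseudocount of 0.1 and 1 with all 18 libraries. Of those nearest to Dlk1, 1 and 0 stayed. The low coverage of Rtl1 and Dio3 limits their values.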
